A study of Mus musculus with 6 samples.

Results

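The 34 genes described here are immediate early and other activity-induced genes, taken from a list of gene symbols and measured in granule cells of the mouse hippocampus. Each was represented by the probe set, of those annotated with that gene symbol alone, with the highest mean over the 6 arrays. All 34 were on the array, among 18193 gene symbols with such a probe set, and 26 of them passed a filter on dim probe sets. The study set 2 transgenic mice, labelled as HuD overexpressors, against 2 control mice. HuD, the product of Elavl4, is an RNA-binding protein of neurons. Each group has 3 arrays, 1 from its mouse 1 and 2, called a and b below, from its mouse 2. RNA came from cells labelled DGCs, taken here as granule cells of the dentate gyrus. The arrays of transgenic mouse 1, transgenic mouse 2 array a and control mouse 1 carry re-LCM in their titles, a tag whose meaning the labels leave unstated. Descriptions assign 2 of the control arrays to mouse 2, although their titles number them as control 1 and control 2. The description was followed. The groups are named as labelled, since Elavl4 itself was not higher in the mice labelled transgenic (values below). The sources used here do not give strain, age, sex or the promoter that drives the transgene.

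Immediate early genes are transcribed within minutes of a rise in neuronal activity, growth factor signalling or stress, without new protein synthesis. Calcium and MAP kinase signals reach their promoters through CREB, which binds the cAMP response element, and through the serum response factor with its Elk partners, which bind the CArG box. Many of the products are transcription factors, others feed back on the signal, and some act at the synapse. Their mRNAs are short-lived, and several carry AU-rich elements, the class of element to which HuD and its relatives bind. In the dentate gyrus, Fos, Arc and Egr1 mark recently active granule cells, which are few at rest.

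No member passed the test between transgenic and control mice. Among the 26 tested, 11 stood higher and 15 (57.7%) lower in the transgenic mice, where 49.5% of all genes tested were lower, with a median log2 difference of -0.04, against 0.0026 over all 14678 genes tested. Those comprise 11138 named genes and 3540 probe sets without a single gene symbol, each of which counts as a gene here and in every share of all genes below. With limma 0 of 26 were called after Benjamini-Hochberg adjustment (adjusted p = 0.999 for each), where the background is 0% of all genes. It was also 0 of the members under each of the 18 alternatives, among them the 6 arrays as separate samples. At an unadjusted p under 0.05 stood 2 members, Atf3 (higher) and Ier2 (lower), against 4.31% of all genes (1.76% higher and 2.55% lower). A difference of at least 1 log2 unit was found for 3 members, Atf3, Egr2 and Ier2, against 1.41% of all genes. The 3 transgenic and the 3 control arrays did not overlap for 2 members, Atf3 and Btg2, both higher in the transgenic mice, against 8.07% of all genes (3.86% higher and 4.22% lower). The fit rests on 2 mice a group, and both arrays of mouse 2 were averaged first. Its p-values weigh the spread between the values of these mice together with a variance shared over all genes tested. Mouse 1 of each group has 1 array, so spread between mice and spread between arrays are not separated. Differences are log2 of transgenic over control, on intensities raised to a floor of 10.1, with the standard error (SE) of the fit. In bulk captures, fewer cells of a type and less RNA per cell cannot be told apart.

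**Figure D1:**
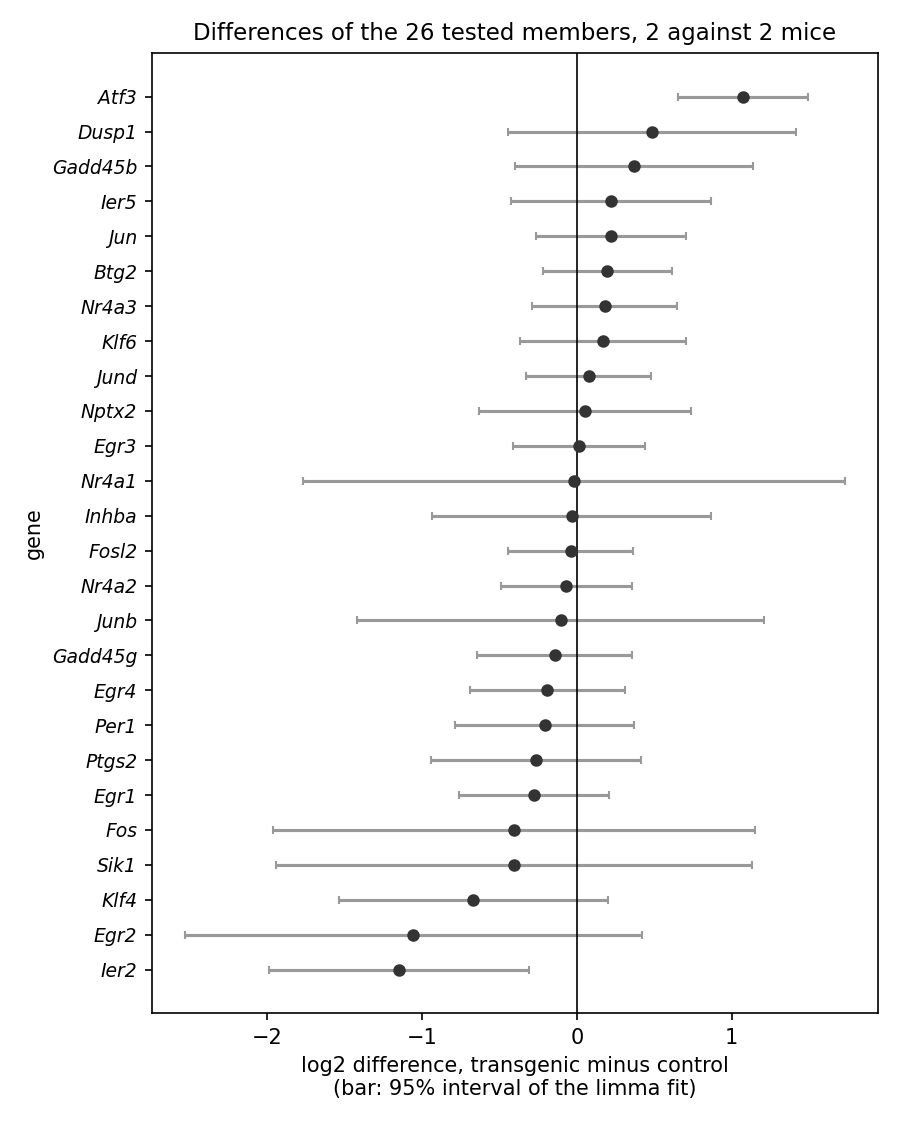
Log2 difference of each of the 26 tested members, transgenic minus control, as a point with the 95% interval of the limma fit on 2 against 2 mice; genes run down the page by difference. The intervals of Atf3 (0.65 to 1.49) and Ier2 (-1.99 to -0.31) lie on 1 side of 0 before adjustment, and those of the other 24 span it.

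Promoter windows of 4 members are shown because they belong to the 2 genes whose arrays did not overlap, Atf3 and Btg2, and to 2 genes with a large spread among arrays, Fos and Egr2. The sequences are from RefSeq (GRCm38.p6), from 250 bases before to 50 after the annotated start. The core of the cAMP response element, TGACGT or ACGTCA on the other strand, is in capitals. Both overlap in the full palindrome TGACGTCA.
Atf3, chr1:191183284-191183583, minus strand: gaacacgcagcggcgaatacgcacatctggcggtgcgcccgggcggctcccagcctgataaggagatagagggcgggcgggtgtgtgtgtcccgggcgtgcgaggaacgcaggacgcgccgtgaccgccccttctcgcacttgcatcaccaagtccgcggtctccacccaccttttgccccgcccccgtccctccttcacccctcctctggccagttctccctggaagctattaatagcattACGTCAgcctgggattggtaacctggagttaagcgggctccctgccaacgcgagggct
Btg2, chr1:134079106-134079405, minus strand: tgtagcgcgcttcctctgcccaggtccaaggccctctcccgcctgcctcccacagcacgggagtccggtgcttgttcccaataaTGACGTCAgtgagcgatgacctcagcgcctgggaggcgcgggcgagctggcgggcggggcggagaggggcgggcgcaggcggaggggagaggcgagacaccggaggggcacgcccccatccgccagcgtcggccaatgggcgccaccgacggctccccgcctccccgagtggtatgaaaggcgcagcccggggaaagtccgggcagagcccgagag
Fos, chr12:85473640-85473939, plus strand: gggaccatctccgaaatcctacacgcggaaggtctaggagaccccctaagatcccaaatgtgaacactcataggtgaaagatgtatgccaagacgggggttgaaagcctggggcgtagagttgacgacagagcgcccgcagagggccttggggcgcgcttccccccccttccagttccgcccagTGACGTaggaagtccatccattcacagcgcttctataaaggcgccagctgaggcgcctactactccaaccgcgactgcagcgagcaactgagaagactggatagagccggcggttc
Egr2, chr10:67537619-67537918, plus strand: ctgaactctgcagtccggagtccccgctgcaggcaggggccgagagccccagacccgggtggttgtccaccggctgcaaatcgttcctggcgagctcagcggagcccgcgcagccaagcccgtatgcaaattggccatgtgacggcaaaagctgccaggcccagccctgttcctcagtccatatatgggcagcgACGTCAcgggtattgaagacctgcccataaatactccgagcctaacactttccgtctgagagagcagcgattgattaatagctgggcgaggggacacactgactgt

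The core was found in 13 of the 32 windows of members (27 members had a window, Egr2 with 5 starts), against 7.51% of all 32851 windows. It occurred in 11 members: Atf3, Btg2, Dusp1, Dusp5, Egr2, Egr4, Fos, Npas4, Nr4a3, Per1 and Ptgs2. The full palindrome was in 2 of the 32 windows, those of Btg2 and Dusp1, against 1.79% of all windows. A CArG box stood in 5 of the 32 windows, all of them of Dusp5 and Egr2, against 1.63% of all windows. In the Egr2 window shown it precedes the marked core. That window was picked from the 5 of Egr2 for holding the most kinds of motif, so it does not stand for the others. These matches describe the letters of the windows, and binding was not measured.

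The clearest separation among the members was that of Atf3, a stress- and injury-induced partner of the Jun proteins. Its intensity was 75.7 on the array of transgenic mouse 1 and 71.3 and 88.0 on arrays a and b of transgenic mouse 2, against 34.9 on that of control mouse 1 and 36.5 and 41.5 on those of control mouse 2. All 3 transgenic arrays lay above all 3 control arrays, and the spread within either group was under the gap between them. The mean log2 level was 6.28 ± 0.046 in transgenic and 5.20 ± 0.11 in control mice (SD, n = 2 each), a 2.10-fold ratio (log2 1.07, SE 0.16; limma unadjusted p = 0.00143, adjusted p = 0.999). Within the tagged arrays the difference was 1.07, and within the untagged arrays it was 1.18. It ran from 0.99 to 1.15 over the leave-outs of a mouse or an array, none of which could turn its sign, since the arrays did not overlap. Atf3 has 1 probe set on the array, so a second one could not be compared.

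The Fos and Jun families, whose products pair to form the AP-1 transcription factor, differed in how steady they were across arrays. Jun read 1793, 1842 and 1442 on the arrays of transgenic mouse 1 and transgenic mouse 2 (a, b), against 1626, 1331 and 1319 on the control arrays in the same order, with a difference of 0.22 (SE 0.18). Its second, dimmer probe set gave 0.25. Jund, a Jun protein that many cells make without stimulation, read 1657, 1827 and 1326 on the transgenic arrays, against 1496, 1826 and 1309 on the control arrays (difference 0.08, SE 0.15). Both genes varied by 1.40-fold between the lowest and the highest of the 6 arrays, and their groups overlapped. A dim second probe set of Jund read 28.2, 38.5 and 23.2 on the transgenic arrays, against 18.3, 1.37 and 5.53 on the control arrays, a difference of 1.10 with 2 control values under the floor.

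Fos, the partner whose protein is a standard marker of recent activity, had a far wider spread. Its intensity was 234, 57.7 and 159 on the transgenic arrays (mouse 1, mouse 2 arrays a and b), against 301, 202 and 84.4 on the control arrays. The 6 arrays spanned 5.22-fold, and in both groups the array of mouse 1 stood above those of mouse 2. Between the arrays of 1 mouse, b over a was 2.76-fold in transgenic mouse 2 and 0.418-fold in control mouse 2. The group difference of -0.41 (SE 0.59) was smaller than either of these gaps, and it was 0.24 without transgenic mouse 2 and 0.20 without control mouse 1.

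Junb read 42.4, 6.94 and 44.7 on the transgenic arrays, against 22.2, 45.5 and 48.0 on the control arrays. Array a of transgenic mouse 2 lay under the floor, and the other 2 transgenic arrays were close to each other. The difference of -0.10 (SE 0.50) became 0.43 without that array. Fosl2, a Fos relative that lacks a strong activation domain, was steady at 398, 350 and 528, against 426, 362 and 496 (difference -0.04, SE 0.15). Fosb and Fosl1 did not pass the filter. Fosb was above the floor on 3 of 6 arrays and Fosl1 on 4 of 6, with intensities of at most 17.5 on the transgenic arrays and 30.8 on the control arrays.

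**Figure D2:**
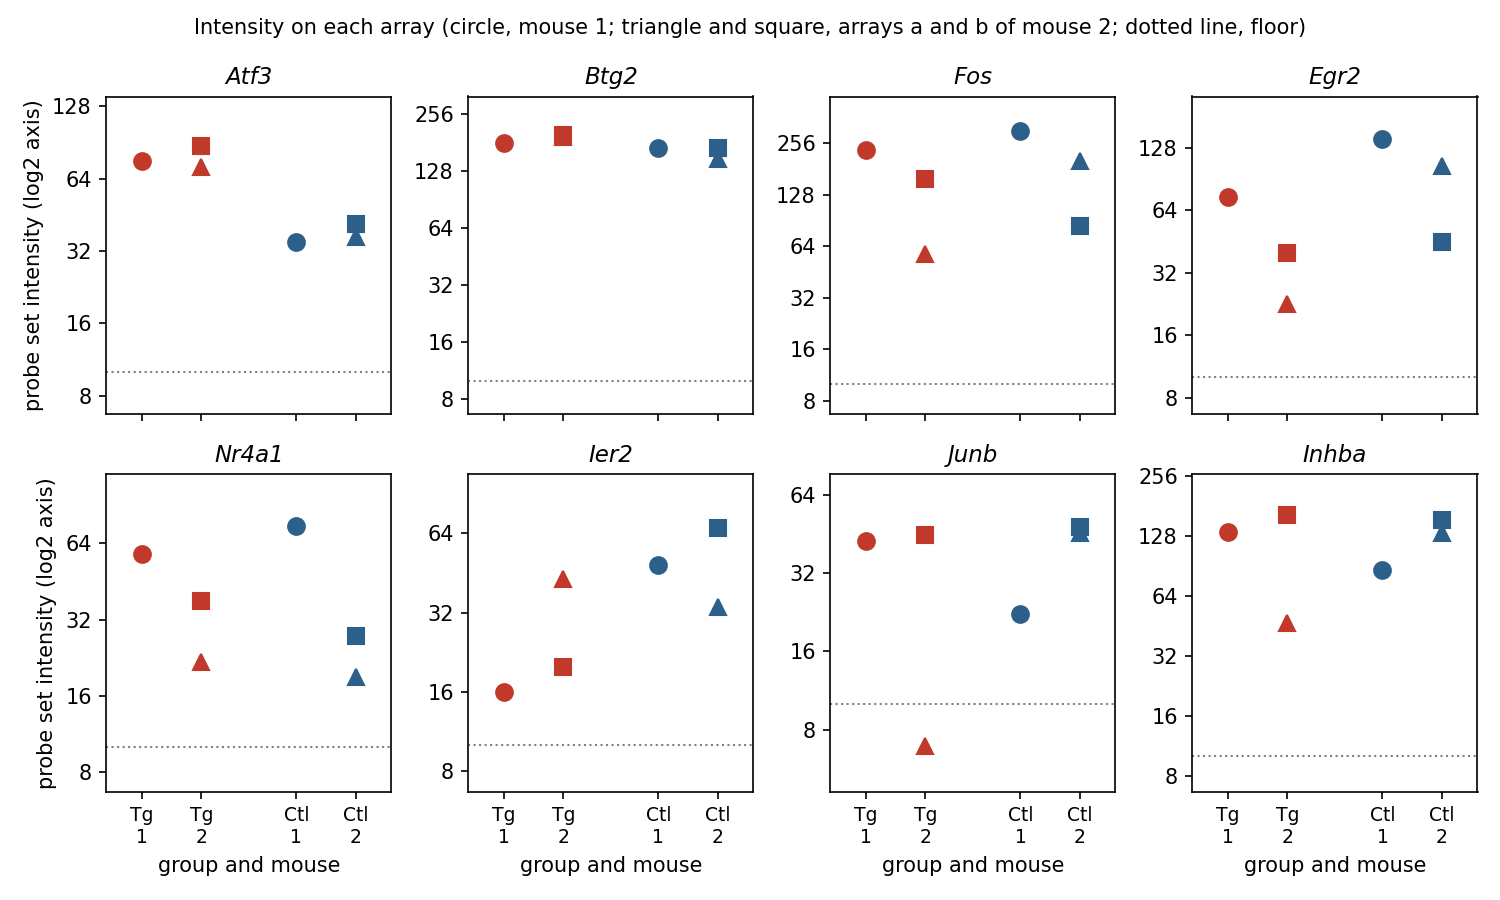
Intensity of 8 members on each array, on log2 axes, with the transgenic mice (Tg, red) left of the control mice (Ctl, blue); circles are mouse 1, triangles and squares arrays a and b of mouse 2, and the dotted line is the floor of 10.1. Atf3 separates the groups, while for Fos, Junb and Inhba the triangle and the square of transgenic mouse 2 lie further apart than the group means.

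The Egr family encodes zinc finger transcription factors that bind GC-rich sites in promoters of later response genes. Egr3 was the steadiest of the tested members over the 6 arrays, at 2847, 2587 and 2449 on the transgenic arrays and 2698, 2739 and 2471 on the control arrays. Its lowest and highest arrays differed by 1.16-fold, and the group difference was 0.02 (SE 0.16, 95% interval -0.41 to 0.44). Egr1 read 615, 642 and 813 on the transgenic arrays, against 878, 760 and 725 on the control arrays, a difference of -0.28 (SE 0.19) with overlap. Within the tagged arrays it was -0.48 and within the untagged arrays 0.13. Egr4 differed by -0.19 (SE 0.19), with 35.4 to 45.4 on the transgenic arrays and 29.5 to 64.5 on the control arrays.

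Egr2, also known for its part in myelination by Schwann cells, had the second largest downward difference. Its intensity was 74.3, 22.8 and 40.1 on the transgenic arrays, against 141, 104 and 45.2 on the control arrays. The transgenic array of mouse 1 lay above array b of control mouse 2, so the groups overlapped. The difference was -1.06 (SE 0.56, 95% interval -2.53 to 0.42), and it ran from -1.70 without transgenic mouse 1 to -0.41 without transgenic mouse 2. The second probe set gave -0.58. As for Fos, the 2 arrays of a mouse went opposite ways, with b over a at 1.76-fold in transgenic mouse 2 and 0.435-fold in control mouse 2.

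The Nr4a genes encode orphan nuclear receptors induced in the same wave. Nr4a1 read 58.2, 21.9 and 37.8 on the transgenic arrays, against 75.0, 19.0 and 27.6 on the control arrays. In each group the array of mouse 1 was the highest, and the difference of -0.02 (SE 0.67) moved to 0.84 without control mouse 1 and -0.88 without control mouse 2. That order, mouse 1 above both arrays of mouse 2 in both groups, held for 3 of the 26 members (Fos, Egr2 and Nr4a1), or 11.5%, against 10.3% of all genes tested.

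Nr4a2 and Nr4a3 were steadier. Nr4a2 differed by -0.07 (SE 0.16) at its brightest probe set, with 266 to 377 on the transgenic arrays and 283 to 355 on the control arrays. Of its other 5 probe sets, 1 read 68.7, 59.0 and 37.0 on the transgenic arrays, against 24.4, 12.9 and 32.9 on the control arrays, a difference of 1.34 with no overlap. Another gave -1.02, with 1 transgenic array under the floor, 1 was under the floor on all arrays, and the rest gave -0.23 and 0.03. Nr4a3 differed by 0.18 (SE 0.18), and its 2 dimmer probe sets gave -0.69 and -0.54.

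Among genes that feed back on signalling and growth, Btg2, an antiproliferative cofactor of mRNA deadenylation, was the second member without overlap. It read 179, 194 and 198 on the transgenic arrays, against 169, 148 and 170 on the control arrays. The groups were close but apart, with a difference of 0.20 (SE 0.16, 95% interval -0.22 to 0.61). Its dimmer probe set separated the groups too, at 114, 93.3 and 99.5 against 83.4, 72.3 and 88.4, a difference of 0.36. Over the 18 alternatives the Btg2 difference stayed above 0, from 0.13 to 0.28. No leave-out of a mouse or an array could turn its sign, since its arrays did not overlap.

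Ier2, a small nuclear protein induced by growth factors, had the largest downward difference. It read 16.0, 42.9 and 19.9 on the transgenic arrays, against 48.4, 33.6 and 66.9 on the control arrays. Array a of transgenic mouse 2 lay among the control arrays, and the other 2 transgenic arrays were below all of them. The difference was -1.15 (SE 0.32; limma unadjusted p = 0.0176, adjusted p = 0.999), and with the floor raised to the median intensity it was -0.40. Within the tagged arrays it was -0.88 and within the untagged arrays -1.26. It was -0.71 without transgenic mouse 1.

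Ier5 differed by 0.22 (SE 0.25), with the array of transgenic mouse 1 at 506 and the other 5 arrays between 329 and 433. Without that mouse it was -0.05. Ier3 was too dim for the test, at 19.1 to 28.6 on the transgenic arrays and 19.2 to 31.7 on the control arrays.

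Dusp1, a phosphatase that switches off MAP kinases, showed how far arrays of 1 mouse could part. Its transgenic arrays agreed closely at 46.5, 47.2 and 39.0, while the control arrays read 22.7, 103 and 19.5, the last 2 from the same mouse. The difference of 0.49 (SE 0.36) was 1.09 without array a of control mouse 2 and -0.11 without array b. Dusp6, which acts on ERK, did not pass the filter (16.9 to 27.6 on the transgenic arrays, 16.4 to 34.1 on the control arrays). Dusp5, which also acts on ERK, was under the floor on all 6 arrays.

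Gadd45b, which takes part in activity-dependent DNA demethylation in granule cells, read 226, 171 and 160 on the transgenic arrays, against 120, 197 and 176 on the control arrays. The difference was 0.37 (SE 0.29), and it was 0.05 without control mouse 1. A second probe set gave 0.29 and the dimmest -0.22. Gadd45g differed by -0.14 (SE 0.19), with 203 to 274 on the transgenic arrays and 208 to 323 on the control arrays. Sik1, a kinase that restrains CREB coactivators, differed by -0.41 (SE 0.59), but by 0.28 without transgenic mouse 1, whose array read 14.6. The clock gene Per1 differed by -0.21 (SE 0.22), with array a of transgenic mouse 2 at 59.7 and the other 5 arrays at 81.8 to 109.

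The Klf genes encode zinc finger factors, of which Klf2 and Klf4 are best known from endothelial cells. Klf4 read 32.3, 52.7 and 48.4 on the transgenic arrays, against 79.8, 45.6 and 58.0 on the control arrays, with overlap and a difference of -0.67 (SE 0.33). Its dimmer probe set was lower without overlap, at 1.19, 18.0 and 4.15 against 18.2, 23.1 and 29.9, of which 2 transgenic values lie under the floor. Klf4 was at -0.34 without transgenic mouse 1 and at -0.35 without control mouse 1. Of the 7 vascular markers tested 5 were lower and 2 higher, with 0 called, and their part in the Klf4 difference was not tested. Klf2 did not pass the filter, at 20.9 to 39.0 on the transgenic arrays and 23.3 to 45.9 on the control arrays. Klf6 differed by 0.17 (SE 0.20), while b over a was 2.42-fold in transgenic mouse 2. Of its 5 probe sets, the dimmer ones gave 0.07, 0.73, 0.24 and 0.41, all but the first with values under the floor.

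The members that act at the synapse or outside the cell did not separate the groups. Inhba, which encodes the activin A subunit, read 134, 46.9 and 163 on the transgenic arrays, against 86.4, 132 and 153 on the control arrays. Array a of transgenic mouse 2 was the lowest of the 6, and the difference of -0.03 (SE 0.34) became 0.42 without it. Nptx2, a secreted pentraxin that gathers AMPA receptors, differed by 0.05 (SE 0.26), with 54.5 to 94.1 on the transgenic arrays and 65.6 to 98.0 on the control arrays. Its dimmer probe set gave 0.54, with 1 control value under the floor. Ptgs2, the inducible cyclooxygenase, differed by -0.26 (SE 0.26), and its dimmer probe set by -0.14.

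Arc, an RNA-binding capsid-like protein of active dendrites, and Npas4, a neuron-specific transcription factor, did not pass the filter. Arc read 21.1, 9.08 and 63.3 on the transgenic arrays, against 7.05, 49.1 and 42.7 on the control arrays, with 1 array of each group under the floor. The arrays of transgenic mouse 2 alone ran from under the floor to the highest of the 6. Npas4 was above the floor on 1 of 6 arrays, that of transgenic mouse 1 at 17.9.

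The spread between arrays of 1 mouse bears on all of these comparisons. Over the 26 tested members the median size of the group difference was 0.202 log2 units, while the median gap between the arrays of 1 mouse was 0.361 in transgenic mouse 2 and 0.378 in control mouse 2. Over all genes tested the same medians were 0.153, 0.297 and 0.28. A gap is between 2 single arrays and the group difference between means over mice, so they are not like measures. The gap exceeded the group difference for 15 of 26 members (57.7%) in transgenic mouse 2 and for 17 of 26 (65.4%) in control mouse 2, against 68.9% and 67.4% of all genes. For 5 members (19.2%) the 6 arrays spanned over 4-fold, against 4.89% of all genes. They were Fos, Junb, Egr2, Ier2 and Dusp1. By level among all genes tested, Junb stood at percentile 1.22, Ier2 at 4.23, Dusp1 at 10.2, Egr2 at 23.8 and Fos at 50. The share over all genes was not matched for level, and the lowest value of Junb lay under the floor.

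Array a of transgenic mouse 2 stood out. It was the lowest of the 6 for 10 of the 26 members (38.5%), against 18.6% of all genes tested. Averaged over the members, the level relative to the mean of the 6 arrays was 0.08, -0.28 and 0.05 on the transgenic arrays, against 0.06, 0.08 and 0.02 on the control arrays, while over all genes every array lay between -0.02 and 0.01. Thus 5 arrays were close to each other, and 1 was lower. The largest drops there were those of Junb (-1.63, from a value under the floor), Egr2 (-1.39), Fos (-1.37) and Inhba (-1.23). Not all members took part, since Jun, Jund and Nr4a3 were at their highest on that array. Atf3, Btg2, Dusp1, Egr4, Ier2, Klf4 and Sik1 were also above their mean of the 6 arrays there. Without that array, 12 of the 26 members were lower in the transgenic mice, and the median difference was 0.08. That array carries the tag and also the word block in its title. The other tagged arrays stood at 0.08 (transgenic mouse 1) and 0.06 (control mouse 1).

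**Figure D3:**
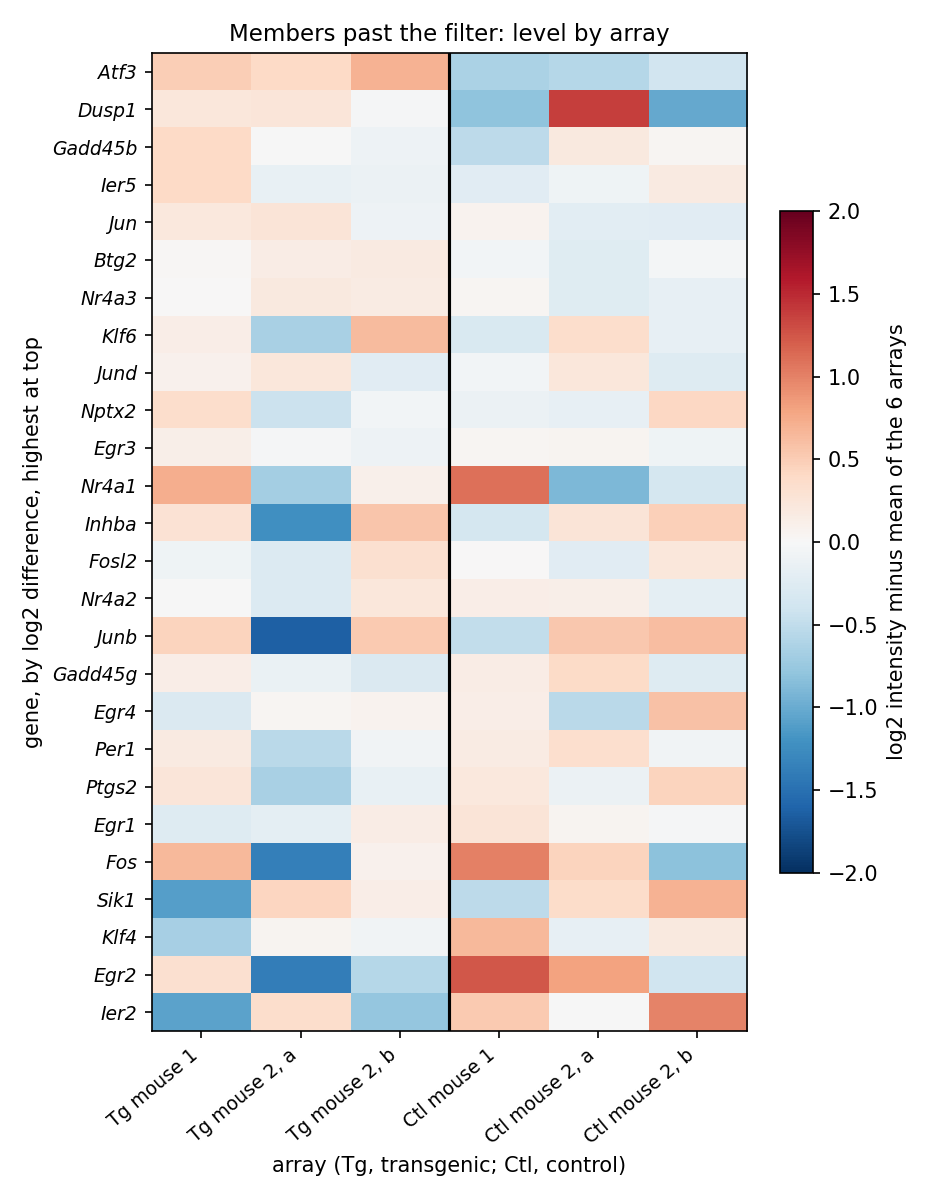
Log2 intensity of the 26 tested members on each array minus the mean of the 6 arrays (colour), with transgenic arrays (Tg) left of the line and control arrays (Ctl) right of it, and genes ordered by group difference. Atf3 changes colour at the line, and array a of transgenic mouse 2 is dark blue for Junb, Fos, Egr2 and Inhba.

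The kinases, coactivators and transcription factors that switch on immediate early genes were on a list of 34, of which 25 were tested. Among them 12 were higher and 13 lower, with 0 called and a median difference of -0.0016. Elk1, a partner of the serum response factor, differed by 0.45 (SE 0.23), and Hdac5, a repressor of Mef2 that leaves the nucleus on activity, by 0.40 (SE 0.18). The ERK-activated kinase Rps6ka3 differed by 0.25 (SE 0.16) and Camkk2, which activates CaM kinase IV, by -0.34 (SE 0.19). The calcineurin subunits Ppp3ca, at 12710 to 14140 on the transgenic and 13500 to 14960 on the control arrays, and Ppp3cb differed by -0.01 and 0.05.

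Of 42 other activity-induced genes 32 were tested, 19 higher and 13 lower, with 0 called and a median of 0.03. Per2, the clock relative of Per1, read 105, 91.0 and 111 on the transgenic arrays, against 65.5, 87.5 and 58.8 on the control arrays. All transgenic arrays were above all control arrays, with a difference of 0.59 (SE 0.16; limma unadjusted p = 0.0152, adjusted p = 0.999). The clock repressor Bhlhe40 differed by 0.35 (SE 0.19) and the G protein regulator Rgs4 by -0.33 (SE 0.17), both with no overlap. Without overlap were thus 2 of the 32 higher and 1 lower, against 3.86% and 4.22% of all genes. Zfp36l1, which binds AU-rich elements and promotes decay, differed by -0.62 (SE 0.31). The bright genes Nptx1 and Nrn1 differed by 0.23 and 0.12. On array a of transgenic mouse 2 the mean level was -0.16 for the regulators and -0.13 for these genes, the lowest of the 6 arrays for both lists. The mean of the 7 vascular markers was also lowest there, at -0.29. By gene, 2 of the 7 were at their lowest on that array and 3 on array b of control mouse 2. The part of vascular cells in the low level of array a of transgenic mouse 2 was not tested.

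**Figure D4:**
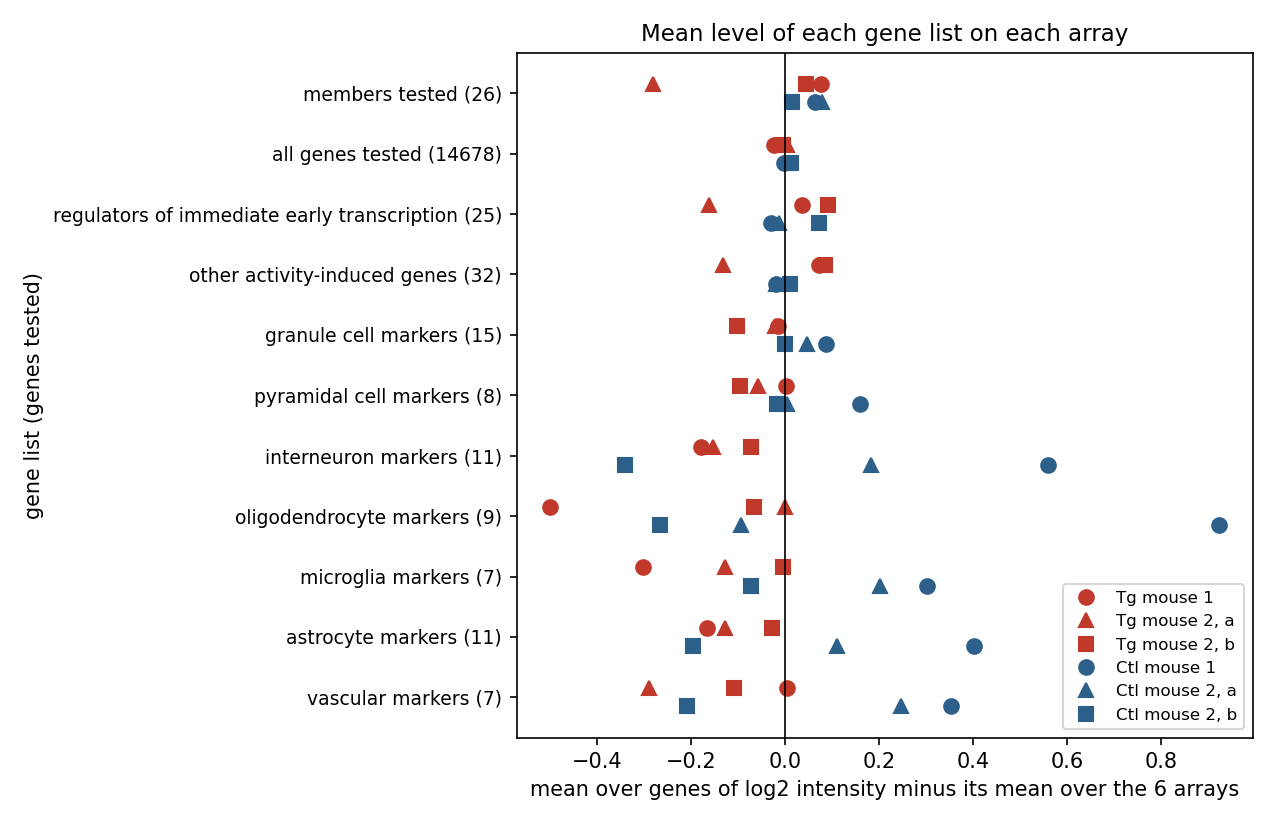
Mean level of each gene list on each array, as log2 intensity minus its mean over the 6 arrays, averaged over the genes tested (number in brackets); transgenic arrays (Tg, red) are drawn above control arrays (Ctl, blue) of the same list. Array a of transgenic mouse 2 (red triangle) is lowest for the members at -0.28, and the array of control mouse 1 (blue circle) is highest for oligodendrocyte markers at 0.92.

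All 15 granule cell markers passed the filter. Calb1 read 6907 to 7444 on the transgenic and 6736 to 7033 on the control arrays. Dsp read 6366 to 7845 and 7009 to 9391. The median difference of the 15 was -0.09, with 3 higher and 12 lower. Passing the filter did not set granule cells apart, since 11 of 12 interneuron and 11 of 12 astrocyte markers passed too. The astrocyte marker Clu read 5484 to 8093 on the transgenic and 6268 to 9623 on the control arrays. The oligodendrocyte marker Mbp read 3727 to 5297 and 3010 to 7661. Markers of other cells were also measured, with 9 of 9 oligodendrocyte, 7 of 7 microglia, 10 of 11 astrocyte, 9 of 11 interneuron, 5 of 8 pyramidal cell and 5 of 7 vascular genes tested lower in the transgenic mice and 0 called. The mean oligodendrocyte level was -0.50 to 0.00023 on the transgenic arrays and -0.27 to 0.92 on the control arrays, highest on that of control mouse 1. Without that mouse the median difference was -0.04 in place of -0.57 for oligodendrocyte, -0.04 in place of -0.21 for astrocyte, -0.0085 in place of -0.38 for interneuron, 0.065 in place of -0.14 for pyramidal cell and -0.02 in place of -0.25 for vascular markers. For microglia markers it was -0.27 in place of -0.33. Among tested markers of other cells, Sst (interneuron), Sox10 (oligodendrocyte) and Cldn5 (vascular) were lower without overlap, with differences of -1.465, -1.195 and -1.149. For Sst, 1 transgenic value lay under the floor. Gad1 (interneuron) and Bok (pyramidal cell) were higher without overlap, with differences of 0.11 and 0.18. Lower without overlap were thus 1 of 11 interneuron, 1 of 9 oligodendrocyte and 1 of 7 vascular markers, against 4.22% of all genes tested. Higher were 1 of 11 interneuron and 1 of 8 pyramidal cell markers, against 3.86%. Among microglia and astrocyte markers there were 0 of 7 and 0 of 11. The vascular median was 0.0017 without transgenic mouse 2. The mean vascular level was -0.29 to 0.0049 on the transgenic and -0.21 to 0.35 on the control arrays. Egr1, Egr2, Fos, Nr4a1 and Klf4 were highest on the array of control mouse 1 too, and the part of other cells in their values was not tested. Elavl4 itself read 79.4, 93.3 and 60.1 on the transgenic arrays, against 122, 92.8 and 63.7 on the control arrays (difference -0.33, SE 0.27), so its probe set does not show the labelled overexpression. Whether it matches the transgene was not examined. Elavl2, of the same family, differed by -0.83 (SE 0.31), with overlap.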

How the data were processed

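The authors deposited linear probe set intensities of 45101 probe sets on 6 arrays, in the series matrix. Their 2% trimmed mean is 150.001 on each array, and the sources used here do not give the program or background correction behind them. The 64 control probe sets were left out. The platform annotation gave 34945 probe sets 1 gene symbol, 932 several and 9160 none. All 34 members have the same symbol in RefSeq. Intensities under the pooled 25th percentile (10.1) were raised to it as a floor before taking log2, so 23.9% to 26.4% of values per array have no order. Each symbol was represented by 1 probe set, and probe sets with no symbol or several stood as items of their own (28285 items). Items with a mean above the median of all probe sets (log2 4.92) were tested, of which 11138 were named and 3540 were not. Arrays of a mouse were averaged, and 2 transgenic were compared with 2 control mice with limma 3.58.1 (lmFit, eBayes; R 4.3.3; 2 residual and 2.7 prior degrees of freedom), adjusted over these 14678 items with Benjamini-Hochberg at 0.05. The fit was also run on simulated data, drawn array by array without a mouse effect, and returned the mean differences put in. That run does not show how often the fit errs where arrays share a mouse. Where a member did not pass the filter, values are given without a test. Named genes are the members, Elavl4 and Elavl2, and the regulators and other activity-induced genes of smallest p or highest level. Of the markers, some bright ones are named, and those of other cells whose arrays did not overlap. Members, lists and tests were chosen with earlier results of these data known; the promoter windows shown were picked with the values in view. The lists share Crem. Mouse numbers are shared by the groups, but nothing in the labels pairs the mice. Deviations of same-numbered mice correlated at 0.0332 across genes. Precision is limited by how few arrays and mice there are. The 18 alternatives changed the scaling, floor, filter, probe set rule, unit of replication, tag, mouse number, variance model, mice and arrays.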

Additional observations from a re-analysis of the deposited data

How the results depend on the processing

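Limits come first from the design, with 2 mice a group and 2 residual degrees of freedom. Gaps between single arrays of 1 mouse had larger medians over the members (0.361 and 0.378) than the group differences (0.202). Dim members rest partly on the floor, and the 8 untested members have values only. No member was called under any of the 18 alternatives. Over all genes 1 (Edil3) was called with a variance trend and robust fit. With mouse number as a replicate block 0 were called, 15 members were lower, the median difference was -0.04 and Atf3 had a limma adjusted p of 0.959; same-numbered mice are not paired by the labels. Of 26 members, 8 (without transgenic mouse 2) to 17 (without its array b) were lower when a mouse or an array was left out. The median difference of the members then ran from -0.19 to 0.11. Under the other settings 14 to 18 were lower, of 24 to 34 members tested. The count was 18 of 34 without the filter and 18 of 26 with mouse as a random block. Of the 26 tested members 8 kept their sign throughout: Jun, Egr1, Egr2, Ier2, Btg2, Klf4, Gadd45b and Atf3. For Btg2 and Atf3, whose arrays did not overlap, no leave-out could turn the sign. Dropping the filter, the mouse number block and the variance model leave the difference of every tested member unchanged. The limma adjusted p of Atf3 ran from 0.131, with mouse as a random block, to 1. That random block fit used a negative correlation between arrays of a mouse (-0.537). Under it 1770 of all genes had a limma unadjusted p under 0.05, against 632 in the main fit.

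Other members changed sign. With the title tag as a term the difference was 0.062 for Fosl2, -0.0017 for Jund, -0.039 for Egr3, -0.050 for Nptx2 and 0.035 for Inhba. With the floor at the median it was 0.023 for Junb and -0.025 for Dusp1. With the mean over probe sets it was -0.0025 for Egr3, 0.0089 for Nr4a2 and -0.35 for Nr4a3. With 6 arrays as separate samples it was -0.0059 for Egr3, 0.096 for Nr4a1 and -0.088 for Nptx2. With mouse as a random block, whose estimated correlation was -0.537, it was -0.024 for Egr3, 0.20 for Nr4a1, -0.030 for Ier5, -0.21 for Nptx2 and -0.0029 for Klf6. Quantile normalization gave 0.067 for Nr4a1. Over the leave-outs the difference ran from -0.11 to 1.09 for Dusp1, -0.074 to 0.10 for Egr3, -0.47 to 0.091 for Egr4, -1.05 to 0.24 for Fos, -0.19 to 0.11 for Fosl2 and -0.32 to 0.033 for Gadd45g. It ran from -0.046 to 0.49 for Ier5, -0.48 to 0.42 for Inhba, -0.64 to 0.43 for Junb, -0.041 to 0.20 for Jund, -0.15 to 0.49 for Klf6 and -0.25 to 0.36 for Nptx2. It ran from -0.88 to 0.84 for Nr4a1, -0.19 to 0.060 for Nr4a2, -0.45 to 0.039 for Per1, -0.58 to 0.060 for Ptgs2 and -1.10 to 0.28 for Sik1. The cause of these changes of sign was not tested, except that leave-outs rest on fewer arrays.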
